A study of Mus musculus with 16 samples.

Results

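Smchd1 is a chromosomal protein with the hinge domain of SMC proteins, which shape and hold together chromosomes, and it takes part in silencing the inactive X chromosome of female cells. It is also tied to genes that are expressed from 1 of their parental copies, among them imprinted genes, whose parental copies are marked differently in the germ line, and the clustered protocadherins, neuronal cell adhesion molecules of which each neuron uses a small choice. Male cells have a single X chromosome and inactivate none, so that male embryos lacking Smchd1 show its loss without a failure of X inactivation.

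The data described here are the 4 MommeD1 males and 4 wildtype males of a series of 16 expression arrays, which were taken by the sex and genotype in their titles. The other 8 arrays, 4 MommeD1 females and 4 wildtype females, entered the estimate of the spread between embryos and the comparison between the sexes. All embryos were FVB/n mice at embryonic day 9.5. MommeD1 embryos were homozygous for an allele of Smchd1 with a nonsense mutation that was induced by N-ethyl-N-nitrosourea, a chemical mutagen, and wildtype embryos were Smchd1+/+. The mutation is in the germ line, so every tissue of a MommeD1 embryo carried it. Each array held RNA of an embryo, and the 4 groups each had 2 arrays on each of 2 BeadChips. Labels number the embryos within each group, and parents or litters of single embryos were not given in the sources used here.

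Values are log2 expression as the authors deposited them, with a median of 6.34 on each of the 16 arrays. Of 25697 probes, 9785 exceeded 7 on at least 4 of the 16 arrays, and these held 6999 genes, each represented by its probe with the highest mean. Differences are MommeD1 minus wildtype on the log2 scale with their standard error, and p was adjusted by the Benjamini-Hochberg method over all 6999 genes with a threshold of 0.05. Sex was checked by sex-linked genes. Both probes of Xist, the RNA that coats the inactive X, lay between 5.89 and 6.35 in males and between 8.18 and 9.34 in females, and Kdm5d, a Y-linked histone demethylase, lay between 7.14 and 7.77 in males and between 5.65 and 6.10 in females. Uty, another Y-linked demethylase, lay between 6.999 and 7.502 in males and between 6.565 and 7.002 in females, ranges that touch, and the probe of Eif2s3y, a Y-linked translation factor, was under 7 on all arrays and did not separate the sexes.

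Few genes passed the threshold for a transcript level altered with loss of Smchd1 in males. Of 6999 genes, 8 passed the threshold (0.114%), 7 of them higher (0.100%) and 1 lower (0.0143%) in MommeD1 males. The lower gene was Smchd1 itself. The raised genes were Mkrn3 and Ndn in the Snrpn imprinted region of chromosome 7, Pcdhb22 in the beta protocadherin cluster, Csf2ra, 4930555G01Rik, Ifitm3 and Timm8b. All 8 were autosomal and in each of them the 4 MommeD1 males did not overlap the 4 wildtype males. Over all genes tested, groups did not overlap in 442 (6.32%), 229 higher (3.27%) and 213 lower (3.04%). At an unadjusted p under 0.05 there were 782 genes (11.2%), 409 higher (5.84%) and 373 lower (5.33%). The median difference over all 6999 genes was 8.3e-04 and 50.4% of them were positive, values that the common distribution of the arrays largely fixes. Because whole embryos were used, fewer cells of a type and less RNA in each cell cannot be told apart in any of these differences.

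Smchd1 was the check of the genotype labels. Its level was 7.54, 7.35, 7.58 and 7.44 in MommeD1 males 1 to 4, against 9.88, 9.72, 9.82 and 9.85 in wildtype males 1 to 4. No MommeD1 male came near a wildtype male. The difference was -2.34 ± 0.07 (SE, n = 4 each), a 5.06-fold decrease, with an adjusted p of 1.24e-14. A second, dimmer probe of Smchd1 averaged 6.30 ± 0.20 in MommeD1 males and 7.25 ± 0.20 in wildtype males (SD, n = 4 each), a difference of -0.95. A further probe lay under 7 on every male array and had means of 5.78 in MommeD1 males and 5.74 in wildtype males. The gene lies on chromosome 17 (GRCm38.p6, chr17:71344489-71475366).

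**Figure D1:**
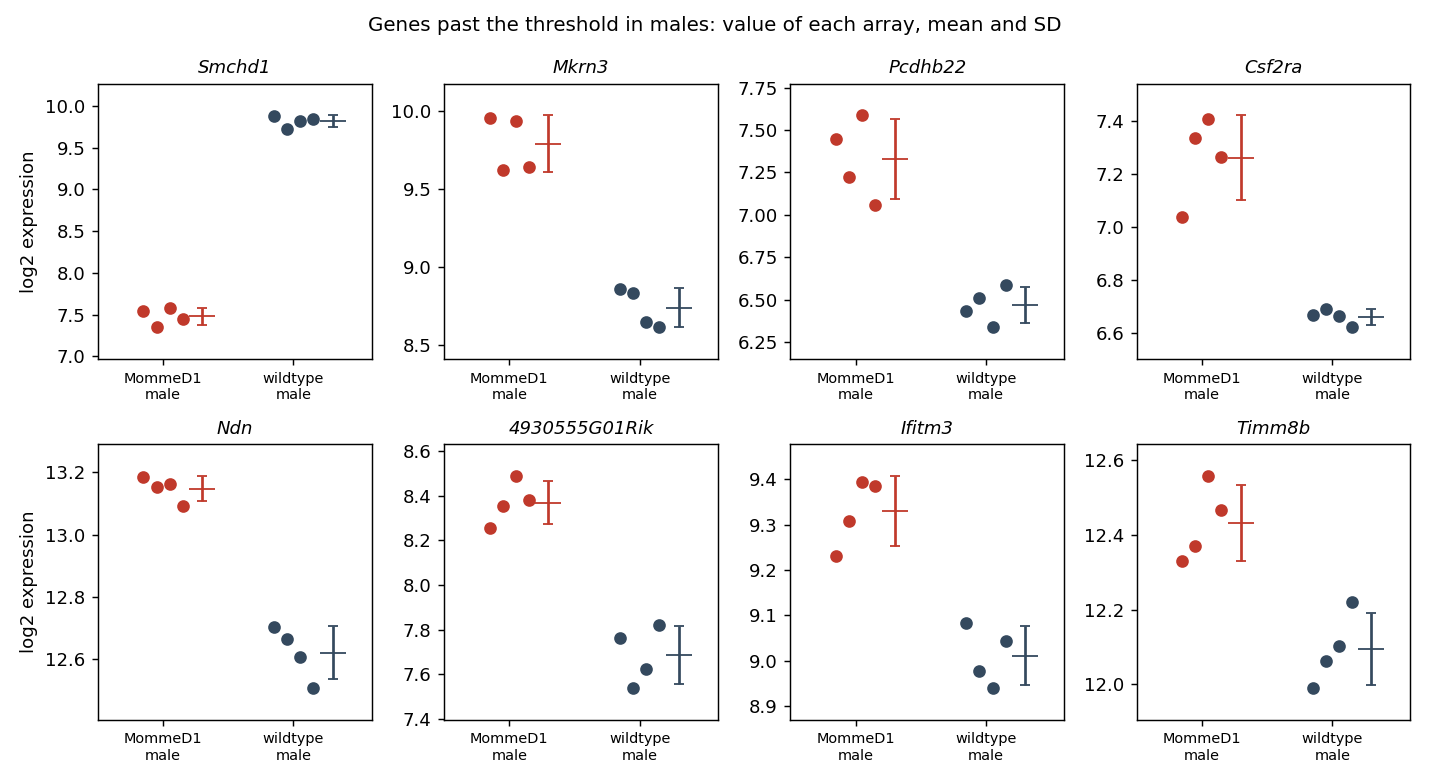
Log2 expression of the 8 genes past the threshold in each male array, with MommeD1 males on the left and wildtype males on the right of each panel; points are the 4 embryos of a group in replicate order and the cross with its bar is their mean and SD. The axes differ between genes and do not start at 0. In all 8 panels the 4 MommeD1 males lie to one side of the 4 wildtype males, below them for Smchd1 and above them for the other genes.

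Mkrn3, which encodes a makorin RING finger protein and is expressed from the paternal copy, had the largest rise among the 6999 genes. Its level was 9.96, 9.62, 9.94 and 9.65 in MommeD1 males, against 8.86, 8.83, 8.65 and 8.62 in wildtype males. The lowest MommeD1 male was well above the highest wildtype male. The difference was 1.05 ± 0.09 (SE), a 2.08-fold increase (95% interval of the log2 difference 0.86 to 1.24, adjusted p = 1.38e-06). MommeD1 males 1 and 3 were higher than 2 and 4.

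Ndn encodes necdin, a MAGE family protein of postmitotic neurons that is also expressed from the paternal copy. It was among the bright probes of the array and its MommeD1 males lay close together, with 13.18, 13.15, 13.16 and 13.09, against 12.70, 12.66, 12.61 and 12.51 in wildtype males. The spread within each group was thus small beside the distance between them. The difference was 0.53 ± 0.06 (SE), a 1.44-fold increase (95% interval 0.39 to 0.66, adjusted p = 1.49e-04).

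Mkrn3 (chr7:62417593-62420153) and Ndn (chr7:62348277-62349928) are neighbours in the Snrpn region, with Magel2 between them (GRCm38.p6). CG dinucleotides are the sites where DNA is methylated in mammals, and methylation of promoters is one of the marks of imprinted copies. The promoters of both genes, from 250 bases before the start to 50 after it, are given here from RefSeq (GRCm38.p6) because these are the imprinted genes that rose; each CG is in capitals.

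Mkrn3 (chr7:62420104-62420403, minus strand): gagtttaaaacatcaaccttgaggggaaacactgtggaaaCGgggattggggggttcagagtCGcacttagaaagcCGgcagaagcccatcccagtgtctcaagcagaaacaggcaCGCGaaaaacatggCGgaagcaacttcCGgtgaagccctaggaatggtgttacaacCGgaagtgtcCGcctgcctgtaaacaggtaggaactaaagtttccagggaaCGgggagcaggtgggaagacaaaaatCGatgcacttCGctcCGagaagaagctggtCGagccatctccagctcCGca
Ndn (chr7:62348027-62348326, plus strand): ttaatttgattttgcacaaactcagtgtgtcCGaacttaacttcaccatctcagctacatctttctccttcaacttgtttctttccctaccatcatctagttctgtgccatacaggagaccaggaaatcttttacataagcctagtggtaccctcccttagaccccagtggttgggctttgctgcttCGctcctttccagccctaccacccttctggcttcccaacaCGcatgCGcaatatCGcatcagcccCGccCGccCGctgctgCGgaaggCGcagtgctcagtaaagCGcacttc

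The motif CG, which reads the same on both strands, occurs 15 times in the Mkrn3 window and 11 times in the Ndn window. Of 32851 such windows in the table, 94.6% hold at least 1 CG, the median is 7, and 34.6% hold as many as Mkrn3 or more and 41.4% as many as Ndn or more. The Ndn window carries most of its CG in the part next to the start, while those of Mkrn3 are spread along the window. Csf2ra has 23 in its window, Timm8b 22, Ifitm3 5 and 4930555G01Rik 3, so the raised genes did not share a high count. Methylation was not measured on these arrays.

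No other gene of the Snrpn region passed the threshold. Of 14 genes listed for the region, 11 had a probe and 7 were kept, of which 2 rose (Mkrn3 and Ndn), none fell and 5 did not pass the threshold. The study drew attention to this region on these same embryos, so its count is not independent evidence. Snrpn, a paternally expressed gene of RNA splicing, was 12.17, 11.86, 11.98 and 11.96 in MommeD1 males, against 12.12, 11.98, 11.94 and 11.95 in wildtype males, and its groups overlapped fully. The difference was -0.0016 ± 0.07 (SE), with an adjusted p of 0.998. Ube3a, a ubiquitin ligase that the maternal copy supplies in neurons, differed by -0.02 ± 0.13 (adjusted p = 0.969). Its second kept probe, which was dimmer, had 7.01, 6.89, 6.85 and 6.78 in MommeD1 males, against 7.13, 7.13, 7.25 and 7.25 in wildtype males, so the groups did not overlap there. That difference was -0.31 ± 0.07 (adjusted p = 0.215 over all probes), and the probes of this gene disagree. Nipa2 and Nipa1, magnesium transporters, and Herc2, a ubiquitin ligase, lie on the far side of Ube3a and had differences of -0.09, 0.13 and 0.11 with adjusted p of at least 0.571. Magel2, between Ndn and Mkrn3, was dim, with means of 6.05 in MommeD1 males and 6.03 in wildtype males, and Peg12, beyond Mkrn3, had means of 5.78 in MommeD1 males and 5.73 in wildtype males, so neither entered the test. The median over the 7 kept genes was 0.11, beside 8.3e-04 over all genes tested, and it was 0.02 without MommeD1 male 3.

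**Figure D2:**
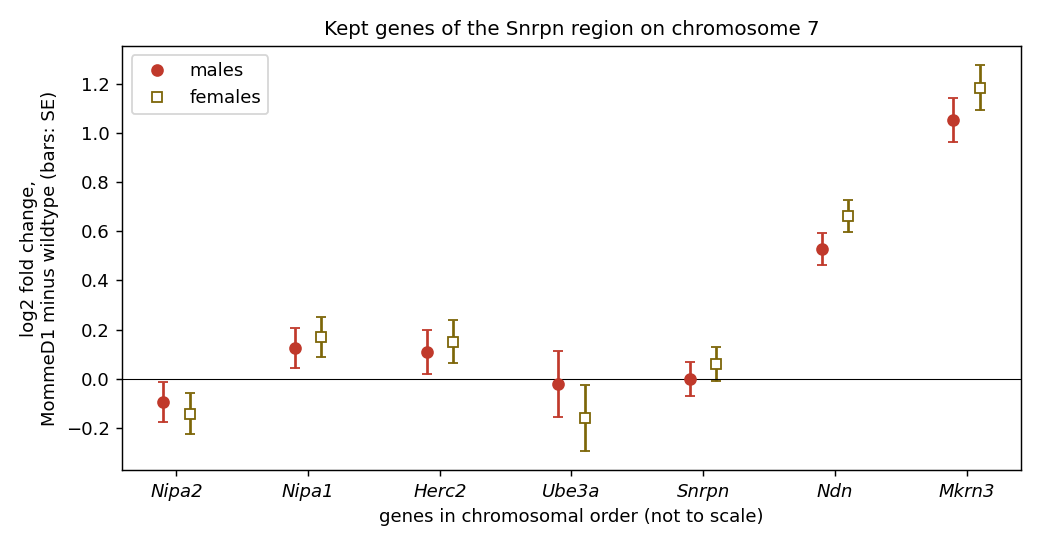
Log2 fold change (MommeD1 minus wildtype, bars are SE, n = 4 each) of the 7 kept genes of the Snrpn region in their order on chromosome 7, in males (filled circles) and in females (open squares). Ndn and Mkrn3, at one end of the row, stand at 0.53 and 1.05 in males, and the other 5 genes lie between -0.09 and 0.13.

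Imprinted genes elsewhere in the genome had no member past the threshold. Of 26 kept, 2 were higher and 1 was lower at an unadjusted p under 0.05, and 13 of 26 differences were positive. Over all genes tested, 5.84% were higher and 5.33% lower at that limit and 50.4% were positive, the background for this and the following lists. Dhcr7, which makes cholesterol from its last precursor, had the lowest p, with a difference of 0.22 ± 0.05 (adjusted p = 0.121). Igf2r, the receptor that clears insulin-like growth factor 2, differed by -0.20 ± 0.06 (adjusted p = 0.235), with all 4 MommeD1 males under the wildtype males. The growth regulators Igf2, Grb10, Cdkn1c and Peg3 had differences of -0.04, 0.02, 0.0079 and -0.04.

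Pcdhb22, a beta protocadherin on chromosome 18, had 7.45, 7.22, 7.59 and 7.06 in MommeD1 males, against 6.43, 6.51, 6.34 and 6.59 in wildtype males. All wildtype males were thus under 7, the level used as the limit for dim probes, and all MommeD1 males were above it. The difference was 0.86 ± 0.10 (SE, adjusted p = 1.23e-04). The measured fold was 1.82, which understates the change if the wildtype values are mostly background. Pcdhb22 entered the tested genes through its MommeD1 arrays alone, and without the limit on dim probes its adjusted p was 3.18e-05. No other clustered protocadherin was kept. Over the 51 probes of 50 clustered protocadherins, fitted with all probes and without a limit on dim ones, that of Pcdhb22 passed the threshold and 37 of 51 differences were positive, with a median of 0.05. At an unadjusted p under 0.05, 4 were higher and 1 lower. Among them, Pcdhb3 averaged 6.16 in MommeD1 males and 5.79 in wildtype males (adjusted p = 0.341 over all probes), and Pcdhb15, the lower one, averaged 5.68 in MommeD1 males and 5.90 in wildtype males (adjusted p = 0.467). None of the 51 probes averaged over 7 in both groups, so for most of this family the array gave little signal to compare. The shares over all unfiltered probes are not given here, so the counts of this family stand without a background.

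Csf2ra encodes the alpha chain of the receptor for granulocyte-macrophage colony-stimulating factor. Its level was 7.04, 7.34, 7.41 and 7.26 in MommeD1 males, against 6.67, 6.69, 6.66 and 6.62 in wildtype males. The wildtype males lay very close together and under 7, and MommeD1 male 1 was the lowest of its group. The difference was 0.60 ± 0.07 (SE, adjusted p = 1.49e-04), a measured fold of 1.52 with the same limit as for Pcdhb22. It too was kept through its MommeD1 arrays alone, and without the limit on dim probes its adjusted p was 1.61e-04. Since this receptor is carried by myeloid cells, the other macrophage and myeloid genes were compared. Of 28 listed, 26 had a probe and 3 were kept, Csf2ra among them. Laptm5, a lysosomal protein of blood cells, differed by 0.14 ± 0.08 (adjusted p = 0.553), and Coro1a, an actin-binding protein of white blood cells, by 0.07 ± 0.12 (adjusted p = 0.855). Scores over these 3 genes, as the mean deviation from the mean of all 16 arrays, ran from -0.08 to 0.30 in MommeD1 males and from -0.22 to -0.13 in wildtype males, a range to which Csf2ra itself contributes. The part of myeloid cells in the rise of Csf2ra was not tested.

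4930555G01Rik, a protein-coding gene of chromosome 14 that is named by a cDNA clone, was 8.25, 8.35, 8.49 and 8.38 in MommeD1 males, against 7.76, 7.54, 7.62 and 7.82 in wildtype males. The difference was 0.68 ± 0.09 (SE), a 1.61-fold increase (adjusted p = 5.58e-04). Its groups were separate although the wildtype males were more spread than for Csf2ra.

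Ifitm3, an interferon-induced transmembrane protein known for restricting the entry of viruses, was 9.23, 9.31, 9.40 and 9.39 in MommeD1 males, against 9.08, 8.98, 8.94 and 9.04 in wildtype males. The groups were separate but close. The difference was 0.32 ± 0.06 (SE), a 1.25-fold increase (adjusted p = 0.0262). The other 5 kept genes of the interferon list did not pass the threshold, and 3 of all 6 differences were positive. Ifitm2, a close relative, differed by -0.08 ± 0.09 (adjusted p = 0.764), B2m, the light chain of class I histocompatibility molecules, by 0.11 ± 0.07 (adjusted p = 0.554), and the transcription factors Irf1 and Irf9 by -0.08 and 0.07.

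Timm8b, a small chaperone that carries proteins across the space between the mitochondrial membranes, was 12.33, 12.37, 12.56 and 12.47 in MommeD1 males, against 11.99, 12.06, 12.10 and 12.22 in wildtype males. The difference was 0.34 ± 0.06 (SE), a 1.26-fold increase (adjusted p = 0.0354). Its second kept probe averaged 12.09 in MommeD1 males and 11.90 in wildtype males, a difference of 0.19 that did not pass the threshold (adjusted p = 0.446 over all probes). Of 28 kept genes of mitochondrial protein import, Timm8b rose and none fell, and 21 differences were positive with a median of 0.06. Tomm6, a small subunit of the outer membrane pore, differed by 0.19 and Timm10b, a chaperone of the inner membrane, by 0.16 (adjusted p of 0.295 and 0.371). Respiratory chain subunits behaved similarly in direction. None of the 71 kept passed the threshold, 8 were higher and none lower at an unadjusted p under 0.05, and 57 differences (80.3%) were positive with a median of 0.06, beside 5.84% higher, 5.33% lower and 50.4% positive over all genes. Ndufs3, a complex I subunit, differed by 0.20 (adjusted p = 0.179) and Cox5a, a complex IV subunit, by 0.21 (adjusted p = 0.205). The median over the 71 was 0.04 without wildtype male 3, the array whose removal lowered it most. Scores over the 71 genes ran from -0.0031 to 0.0462 in MommeD1 males and from -0.0643 to 0.0013 in wildtype males, so the embryos overlapped.

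**Figure D3:**
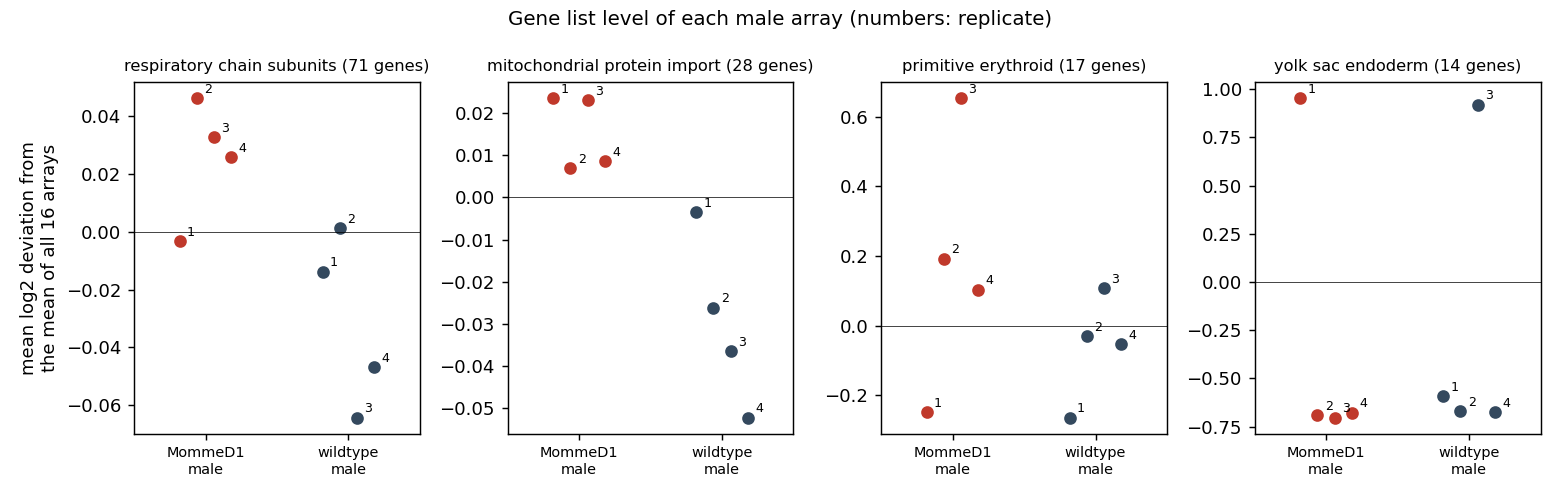
Level of 4 gene lists in each male array, as the mean log2 deviation of the list's genes from their mean over all 16 arrays, with MommeD1 males on the left and wildtype males on the right; numbers by the points are replicates, and the axes differ between panels. The lists of mitochondrial import and respiratory chain lie within a narrow range, MommeD1 male 3 is the highest for erythroid genes (0.65), and MommeD1 male 1 and wildtype male 3 stand alone for yolk sac endoderm genes (0.95 and 0.92).

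The arrays differed in ways that crossed the genotypes. Transcripts of yolk sac endoderm, the secretory layer of the membrane around the embryo, were high in MommeD1 male 1 and wildtype male 3, with scores over the 14 kept of 25 listed genes of 0.95 and 0.92, while the other MommeD1 males ran from -0.70 to -0.68 and the other wildtype males from -0.67 to -0.59. None of the 14 passed the threshold. Ttr, a carrier of thyroid hormone, and Apoa1, of lipoproteins, differed by -0.17 ± 0.81 and 0.0031 ± 0.89. Primitive erythroid genes had a score of 0.65 in MommeD1 male 3, and the other MommeD1 males ran from -0.25 to 0.19 and wildtype males from -0.27 to 0.11. Of 17 kept erythroid genes none passed the threshold, 16 differences were positive and their median was 0.25, which became 0.07 without MommeD1 male 3. Blvrb, an enzyme of haem breakdown, had the largest of these differences, 0.52 ± 0.21 (adjusted p = 0.367), and the embryonic globins Hbb-y, Hbb-bh1 and Hba-x differed by 0.04, 0.02 and 0.21 near the top of the scale. Wildtype male 4 had the lowest score over the 20 kept Hox genes, which pattern the body axis, at -0.45, against a range of -0.20 to 0.20 in MommeD1 males and 0.03 to 0.20 in the other wildtype males.

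Leaving out each male array in turn divided the 8 genes. Smchd1, Mkrn3, Pcdhb22, Csf2ra, Ndn and 4930555G01Rik passed the threshold in 8 of 8 such fits. Mkrn3 then ranged from 1.00 to 1.11, Pcdhb22 from 0.78 to 0.95, 4930555G01Rik from 0.63 to 0.73, Csf2ra from 0.55 to 0.67 and Ndn from 0.49 to 0.56. Ifitm3 passed in 3 of 8, with differences of 0.29 to 0.35 and an adjusted p of up to 0.166, and Timm8b in 2 of 8, with differences of 0.29 to 0.38 and an adjusted p of up to 0.190. For both the highest adjusted p came without MommeD1 male 3. Ifitm3 kept its call without MommeD1 male 1, wildtype male 1 or wildtype male 4, and Timm8b without MommeD1 male 1 or wildtype male 4.

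MommeD1 male 1 was the array on which the number of genes turned. Without it 58 genes passed the threshold (0.829%), 27 higher and 31 lower, and these held all 8. Without any other male array there were 6 to 10. The absolute distance of MommeD1 male 1 from the mean of the other 3 arrays of its group was 0.10 (log2, median over genes), the largest of the 8 male arrays, of which the rest had 0.07 to 0.09. In the 50 genes that passed only without it, MommeD1 male 1 lay on the side of the other MommeD1 males in 20, within the range of the wildtype males in 17 and beyond them on the other side in 13. Choosing genes by the removal of this array favours those in which it stood apart. These positions, and the low adjusted p of such genes without it, thus partly follow from the choice. Mef2c, a transcription factor of heart and muscle, was 9.31 in MommeD1 male 1 and between 8.66 and 8.73 in the other MommeD1 males, against 9.14 to 9.30 in wildtype males. Its difference was -0.37 with all arrays (adjusted p = 0.164) and -0.52 without MommeD1 male 1 (adjusted p = 5.69e-05). Rpl7a, a ribosomal protein, was 13.03 in MommeD1 male 1 and between 12.33 and 12.55 in the others, against 12.98 to 13.12 in wildtype males, with a difference of -0.50 (adjusted p = 0.0890) and of -0.65 without that array (adjusted p = 5.05e-04). Zeb2, a repressor active in neural crest, showed the same pattern, with 9.24 in MommeD1 male 1 and 8.65 to 8.92 in the others, against 9.16 to 9.29 in wildtype males. High yolk sac transcripts marked this array too, and the part of that tissue in these genes was not tested. Without the 3 arrays high in yolk sac transcripts, MommeD1 male 1, wildtype male 3 and MommeD1 female 2, there were 24 genes, 10 higher and 14 lower.

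**Figure D4:**
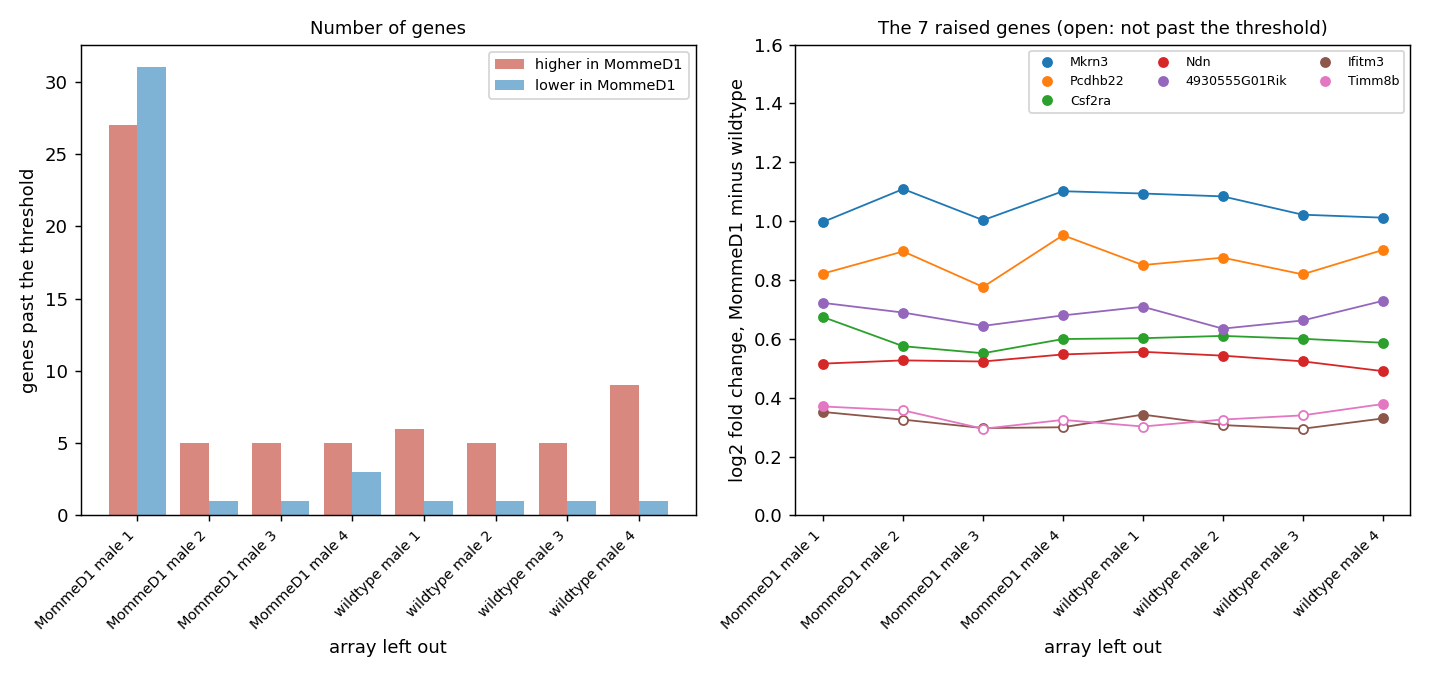
Left, number of genes past the threshold in males, higher and lower in MommeD1, when the array named below is left out; without MommeD1 male 1 there were 27 higher and 31 lower. Right, log2 fold change (MommeD1 minus wildtype) of the 7 raised genes in the same fits, with open points where the gene did not pass the threshold, as for Ifitm3 in 5 and Timm8b in 6 of 8.

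Below the threshold, 36 genes had an adjusted p under 0.1, the 8 included, 25 of them higher and 11 lower. The 10 autosomal genes of each direction with the lowest p among those whose groups did not overlap had small differences, from 0.23 to 0.45 for the higher and from -0.40 to -0.23 for the lower ones. Among the higher were Smarcc2, a subunit of SWI/SNF chromatin remodelling complexes (0.37 ± 0.08, adjusted p = 0.0750), Celsr2, a cadherin of planar cell polarity (0.37 ± 0.08, adjusted p = 0.0839), Mnd1, a factor of meiotic recombination (0.31 ± 0.07, adjusted p = 0.0794), Coa6, an assembly factor of complex IV (0.35 ± 0.07, adjusted p = 0.0750), and Haspin, a kinase of histone H3 in mitosis (0.23 ± 0.05, adjusted p = 0.0990). Asap2, an activator of Arf GTPases, had the lowest p of these, with 8.21, 7.97, 8.15 and 8.01 in MommeD1 males, against 7.73, 7.76, 7.70 and 7.72 in wildtype males, and an adjusted p of 0.0623. The remaining higher genes were Gm5797, Sfi1, Klhl7 and Scaf1. Among the lower were Grip1, a scaffold of glutamate receptors (-0.33 ± 0.07, adjusted p = 0.0605), Arhgap32 (-0.40 ± 0.09, adjusted p = 0.0839), Ppp3r1, the regulatory subunit of calcineurin (-0.30 ± 0.07, adjusted p = 0.0890), Thap12 (-0.30 ± 0.06, adjusted p = 0.0800) and Tek, the angiopoietin receptor of endothelium (-0.28 ± 0.07, adjusted p = 0.116). N4bp2, Slco3a1, Fam117a, 2310022B05Rik and Aplp2 made up the rest. None of these 20 passed the threshold in the fit described so far, but with all arrays 18 did so with array weights, 9 with a trended and robust variance and 5 with chip as a block. Without MommeD1 male 1, 11 of the 20 passed it, Smarcc2, Celsr2, Mnd1, Coa6, Grip1 and Thap12 among them. Smarcc2 also passed without wildtype male 4 and Thap12 without MommeD1 male 4.

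**Figure D5:**
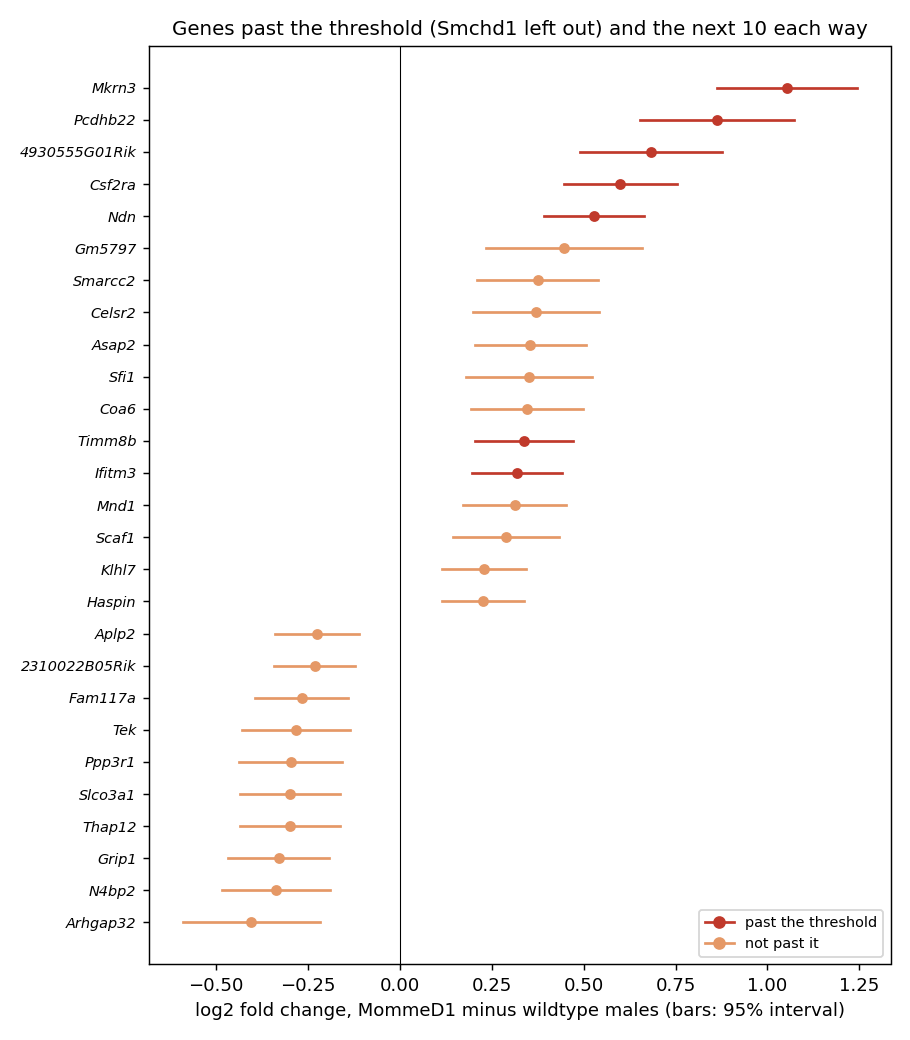
Log2 fold change in males (MommeD1 minus wildtype) with its 95% interval for the 7 raised genes past the threshold (dark) and the next 10 genes of each direction (light); Smchd1, at -2.34, is left out. Mkrn3 lies farthest from 0, at 1.05, and the genes not past the threshold lie between -0.40 and 0.45.

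Large differences were rare and those of single genes were not always well measured. Of 6999 genes, 9 differed by more than 0.5, of which 8 were higher, and 6 of the 9 had passed the threshold. The other 3 were Sst, the hormone somatostatin (0.73 ± 0.26, adjusted p = 0.280), Cited4, a transcriptional coactivator (0.62 ± 0.22, adjusted p = 0.280), and Blvrb, and in none of these did the groups separate. The median SE over all genes was 0.07.

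Testing all 9785 kept probes, in place of 1 for each gene, gave 13 past the threshold (0.133%). Besides the probes already described, the lowest p belonged to a probe with no gene symbol in the annotation used here (ILMN_2944601). It had 10.33, 10.31, 10.29 and 10.29 in MommeD1 males, against 8.67, 8.54, 8.64 and 8.56 in wildtype males. The difference, 1.70 ± 0.05 (SE, adjusted p = 4.16e-15), exceeded that of every raised gene, and the MommeD1 males lay within a very narrow range. The probe annotation of the study assigns it to Pisd-ps1, a transcribed pseudogene of phosphatidylserine decarboxylase, while RefSeq lists the clone name given there under Pisd-ps3, so which copy it measures is uncertain. Pisd itself differed by -0.04 ± 0.08. A pair of probes annotated to Actb, the cytoskeletal beta actin, fell, with means of 7.36 in MommeD1 males and 9.26 in wildtype males for one and of 7.41 in MommeD1 males and 9.17 in wildtype males for the other. The brightest Actb probe, which represents the gene, averaged 14.38 in MommeD1 males and 14.45 in wildtype males, so the probes of this gene disagree. A second probe of Eprs, a transfer RNA synthetase, differed by -0.43 ± 0.08 (adjusted p = 0.0306). The brighter Eprs probe, which represents the gene, differed by -0.20 and did not pass the threshold (adjusted p = 0.378 over genes).

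No X-linked gene passed the threshold in males. Of 236 X-linked genes, 11 were higher and 14 lower at an unadjusted p under 0.05, and their median difference was 0.0019, beside 8.2e-04 over 6758 autosomal genes. An X score, the mean deviation of X-linked genes from their mean over the 16 arrays less that of autosomal genes, lay between -0.07 and -0.04 in MommeD1 males and between -0.07 and -0.04 in wildtype males. Its difference was -8.1e-04 (exact two-sided permutation over 70 arrangements, p = 0.943; adjusted over 3 comparisons 0.943). In females it was 0.17 (exact permutation p = 0.0286, below which 70 arrangements cannot go; adjusted 0.0429), with MommeD1 females between 0.12 and 0.15 and wildtype females between -0.06 and -0.02. The effect in males less that in females was -0.17 (permutation within each sex, all 4900 arrangements, exact p = 0.0135, adjusted 0.0404). Those arrangements assume no effect of MommeD1 in either sex, so this p does not test whether the sexes had equal effects. Among autosomes, the share of genes at an unadjusted p under 0.05 ran from 8.57% on chromosome 19 to 14.9% on chromosome 7, which carries Mkrn3, Ndn and Ifitm3.

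The 8 genes moved alike in females. All 8 passed the threshold there in the same direction, beside 523 of 6999 genes past it in females (7.47%; 4.14% higher and 3.33% lower), and none of the 8 had an effect that differed between the sexes, at an adjusted p under 0.05 or at an unadjusted p under 0.05. Male and female embryos share no arrays, but they share the estimate of the spread. Mkrn3 differed by 1.19 ± 0.09 in females, so that the male effect less the female effect was -0.13 (95% interval -0.40 to 0.14). The same difference was -0.13 for Ndn (-0.32 to 0.06), -0.22 for Pcdhb22 (-0.52 to 0.08), 0.0075 for Csf2ra (-0.21 to 0.22), 0.15 for 4930555G01Rik (-0.13 to 0.42), 0.07 for Ifitm3 (-0.10 to 0.24) and 0.03 for Timm8b (-0.16 to 0.22). These intervals leave room for sex differences of the size of a part of the effect. Of the next 20 genes, all 20 had the same sign in females, and 12 passed the threshold there, 5 of the higher and 7 of the lower. The share of all genes with the same sign in both sexes is not given here, so the count of signs has no background.

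Over all genes, 25 effects differed between the sexes (0.357%), 21 of them X-linked. The 4 autosomal genes were Cdkn1a, an inhibitor of the cell cycle, Ccng1, a cyclin, and Phlda3, an inhibitor of Akt, which are targets of p53, and Ngfr, the low-affinity neurotrophin receptor. Cdkn1a differed by 0.08 ± 0.10 in males and by 0.95 ± 0.10 in females, a difference of -0.87 ± 0.14 between the effects (adjusted p = 0.00366). Ccng1 differed by 0.18 ± 0.09 in males and 0.86 ± 0.09 in females (adjusted p of the difference 0.0177), and Phlda3 by 0.24 ± 0.07 in males and 0.75 ± 0.07 in females (adjusted p of the difference 0.0171). Of 21 kept p53 targets none passed the threshold in males, 1 was higher and 2 were lower at an unadjusted p under 0.05, and the median was 0.02.

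Genes of chromatin silencing, in which Smchd1 acts, were compared too. Of 34 kept genes for DNA methylation, heterochromatin and SMC proteins, Smchd1 left out, none passed the threshold, 3 were higher and 5 lower at an unadjusted p under 0.05, and 10 of 34 differences were positive with a median of -0.04, beside the same 5.84% higher, 5.33% lower and 50.4% positive over all genes. Cbx1, a heterochromatin protein, differed by -0.25 ± 0.07 (adjusted p = 0.198), and Lrif1, which binds heterochromatin together with Smchd1, by 0.26 ± 0.08 (adjusted p = 0.217). Ezh2, the methyltransferase of Polycomb complex PRC2, differed by -0.18 and Hdac1, a histone deacetylase, by -0.17 (adjusted p of 0.280 for each). The maintenance methyltransferase Dnmt1 and its partner Uhrf1 differed by -0.05 and -0.03. Scores over the 34 genes ran from -0.0110 to -0.0072 in MommeD1 males and from 0.0126 to 0.0298 in wildtype males, a narrow gap. Such a gap was not particular to this list. Scores of the Snrpn region, mitochondrial import, myeloid genes and genes that escape X inactivation did not overlap between the groups either. For mitochondrial import they ran from 0.0069 to 0.0235 in MommeD1 males and from -0.0523 to -0.0035 in wildtype males.

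Genes of the other tissues of the embryo had no member past the threshold. In the neural progenitor list (14 kept), Neurog2, a proneural factor, differed by 0.32 and Hes5, a target of Notch, by 0.27 (adjusted p of 0.205 and 0.243). Hes1 and Notch1, the next by p, differed the other way, by -0.13 and -0.21 (adjusted p of 0.457 and 0.472). Over this list 8 of 14 differences were positive, with a median of 0.02. In the neuronal list (15 kept) 11 differences were positive with a median of 0.12, which was 0.01 without wildtype male 1. Msx1, a homeobox factor of neural crest, differed by -0.22 (adjusted p = 0.184) and Ngfr, of the same list, by 0.19 (adjusted p = 0.262). Of 14 kept neural crest genes 4 differences were positive, with a median of -0.04. Hoxb7 differed by 0.39 (adjusted p = 0.196) and Hoxb3 by -0.20 (adjusted p = 0.483). Of 20 kept Hox genes 11 differences were positive, with a median of 0.02. That median was -0.14 without wildtype male 4 and 0.11 without wildtype male 1. Of 17 kept endothelial genes 1 was lower and 2 were higher at an unadjusted p under 0.05, with a median of -0.02. Among cytosolic ribosomal proteins 52 were kept, 3 higher and 2 lower at an unadjusted p under 0.05, with a median of 0.02. Trophoblast and decidua, tissues that can adhere to a dissected embryo, had 5 kept genes each and medians of -0.12 and -0.05. Both signs rested on single arrays, since trophoblast had 0.04 without wildtype male 1 and decidua 0.02 without MommeD1 male 2. Cardiac and somite genes had medians of -0.04 and 0.02.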

How the data were processed

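Total RNA of whole embryos was labelled as biotinylated cRNA and hybridised to Illumina mouse BeadChips. The authors deposited log2 intensities, 1 value per probe and array, made with beadarray and limma per the methods; the arrays share 1 distribution, as quantile normalization gives. No versions were given in the sources used here. A second table of unnormalized signals and detection p-values, with 32 columns that no label ties to an embryo, was not used.

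Probes over 7 on at least 4 of 16 arrays were kept. A probe was named through its annotated gene and RefSeq (GRCm38.p6); of all probes 23978 had 1 symbol and 1719 none. The 4 groups were fitted together with limma 3.58.1 (R 4.3.3; lmFit, eBayes; 12 residual degrees of freedom), p-values were adjusted by Benjamini-Hochberg, and the script was tested on simulated data. Named genes were those past the threshold, the next 10 autosomal genes of each direction with separate groups, the 10 with the largest change of each direction without the array that mattered most, sex-linked genes for the check of sex, autosomal genes whose effect differed between sexes, and for each list the 4 lowest p or all members under 8; Magel2, Peg12, Pcdhb3, Pcdhb15, Igf2, Grb10, Cdkn1c, Peg3, Dnmt1, Uhrf1, Sst, Hba-x, Hbb-y, Hbb-bh1, Ttr, Apoa1, Pisd, the second Ube3a probe and the Actb and Eprs probes were added after their values were seen. The members and gene lists were chosen with earlier results of these data known. The germline list had no kept gene. The number of arrays limits the precision, and p-values measure the spread between these embryos.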

Additional observations from a re-analysis of the deposited data

Results flagged for a closer look

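Among 310 groups of 4 arrays, the highest or lowest array stood far from the other 3 in 16, by Dixon's criterion, which chance alone meets in about 1 in 20 groups. In MommeD1 male 1 these were Mef2c (9.31), Fam117a (8.84), Fgg (7.54) and the yolk sac endoderm score (0.95). In MommeD1 male 2 they were Nipa2 (8.87) and Lum (9.05), in MommeD1 male 3 Celsr2 (7.89), Slco3a1 (6.92) and Dnajc15 (11.34), and in MommeD1 male 4 Ngfr (8.11) and Rps26 (14.35). In wildtype male 2 they were Laptm5 (8.63) and the dimmer kept Smchd1 probe (6.94), and in wildtype male 3 Dab2 (10.72), Cryab (8.11) and the yolk sac endoderm score (0.92).

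The effect of MommeD1 in males differed from that in females, by a test of the difference, for 4 autosomal genes. The X score was flagged too, although its permutation did not test whether the sexes had equal effects. The male effect less the female effect was -0.87 for Cdkn1a, -0.68 for Ccng1, -0.51 for Phlda3, 0.45 for Ngfr and -0.17 for the X score. For Ngfr the effect was 0.19 ± 0.07 in males and -0.25 ± 0.07 in females.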

How the results depend on the processing

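The 8 genes past the threshold in males became 14 with chip as a block, 3 on chip 1 alone, 20 with a trended and robust variance, 42 with array weights, 24 without the 3 arrays high in yolk sac transcripts, 6 to 58 with a male array left out, and 13 when all kept probes were tested, an alternative chosen after seeing the data. Higher and lower calls stood at 10 and 4 with chip as a block, 14 and 6 with the trended variance, 26 and 16 with array weights, and 3 and 4 on chip 2 alone. The cause was not tested. Smchd1 and Mkrn3 passed in all 20 alternatives. On chip 1 alone Ndn (adjusted p = 0.121) and Csf2ra (adjusted p = 0.554) failed, and on chip 2 alone Pcdhb22 failed (adjusted p = 0.164). 4930555G01Rik failed on each chip alone (adjusted p up to 0.137). A chip alone held 2 arrays a group. Ifitm3 and Timm8b failed in 10 of 20 each. No call reversed. The X score difference changed sign with the median over genes (0.0031), the mean of probes (3.5e-04), on chip 2 (0.0078) and over arrays left out (-0.0064 to 0.0053). The 25 genes that differed between the sexes became 19 to 34.

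Deviations of same-numbered embryos of the 2 male groups had correlations of -0.07 to 0.17, and those of differently numbered embryos -0.26 to 0.30. So few correlations cannot decide whether the numbers pair embryos, and the main fit did not pair them. With a replicate block 8 genes passed in males, Celsr2 among them and Ifitm3 not, the X score difference was -8.1e-04 and 25 genes differed between the sexes. Of 2373 values of the 120 other named genes, 80 crossed the threshold and 61 changed sign without a call.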
